A study of Mus musculus with 9 samples.

Results

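The genes described here are S100a8, S100a9, Mmp8, Ly6g, Retnlg, Stfa2l1 and Chil3, all of which are used as marks of mouse neutrophils or of other myeloid cells in inflamed tissue. They were taken by symbol from a table of estimated RNA-seq counts of mouse colon, which holds all 7 of them among 21720 genes. RNA was measured in the colon of female wild-type C57BL/6 J mice, in 3 libraries for each of 3 groups. The ATO group received atorvastatin, a statin, by gavage at 10 mg/kg in 0.2 mL once a day on days 3 to 7. Mice of the Model group were gavaged for 7 days with 5% dextran sulfate sodium (DSS), a sulfated sugar polymer toxic to colonic epithelium. The Normal group received only the vehicle, 0.5% sodium carboxymethyl cellulose, for 7 days. The labels do not state whether ATO mice were also given DSS, nor whether each library came from its own mouse, so p-values rest on the variation among these libraries, part or all of which may be technical.

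S100a8 and S100a9 encode the subunits of calprotectin, a complex that binds calcium, zinc and manganese, fills the cytosol of neutrophils and withholds metals from microbes. Its level in stool is measured in patients as a sign of neutrophils entering the gut. Neutrophils carry further proteins in granules that are filled in turn while the cell matures in the bone marrow: azurophil granules hold myeloperoxidase and elastase, and specific and gelatinase granules hold lactoferrin, collagenases and gelatinases. Mmp8 encodes neutrophil collagenase, a protein of specific granules. Ly6g encodes a surface protein held by a lipid anchor, the target of the antibody most used to identify mouse neutrophils, and not a granule protein. Retnlg encodes a secreted protein of the resistin family, Stfa2l1 an inhibitor of cysteine proteases of the stefin A family, and Chil3, also called Ym1, a chitinase-like lectin that neutrophils and macrophages make.

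Libraries held 72600000 to 91700000 estimated counts (3 significant digits). Low values piled up at multiples of 4, which sets the worth of a read pair near 4 estimated counts, or 0.0442 to 0.0584 CPM (counts per 1000000, over TMM-scaled library sizes) in a library. The colonic genes Muc2 and Krt20 reached at least 9680 and 1110 CPM in every library. The share of counts from pancreatic acinar genes was 8.14% for Model 2 and 3.49% for Model 3, against at most 0.328% in the other libraries, and small intestinal enterocyte genes summed to 372 CPM in Model 3 and at most 127 CPM elsewhere. Mitochondrially encoded genes held 0.703 to 0.772% of the counts in ATO, 0.598 to 0.729% in Model and 0.861 to 1.04% in Normal libraries. With the acinar genes taken out of the table the members' log2 fold changes and calls stood as before (S100a9 in Model against Normal at 8.25, 5 members called). The part of the small intestinal and mitochondrial differences in the results was not tested.

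The promoters of 3 genes are shown because the results set them apart: the calprotectin pair, which rose together, and Ly6g, whose libraries overlapped between all groups. Each line gives the 250 bases before an annotated transcript start, 5′ to 3′ along the gene's strand, from RefSeq's annotation of GRCm38.p6 (S100a8 chr3:90668821-90669070, plus strand; S100a9 chr3:90695722-90695971, minus strand; Ly6g chr15:75155011-75155260, plus strand, the first of 2 annotated starts, whose windows share the GAGGAA and TATAAA matches). Capitals mark 3 motifs searched on both strands: TTGNNCAA, a form of the C/EBP site, GAGGAA, the core of the PU.1 site, and TATAAA, the TATA box.
S100a8: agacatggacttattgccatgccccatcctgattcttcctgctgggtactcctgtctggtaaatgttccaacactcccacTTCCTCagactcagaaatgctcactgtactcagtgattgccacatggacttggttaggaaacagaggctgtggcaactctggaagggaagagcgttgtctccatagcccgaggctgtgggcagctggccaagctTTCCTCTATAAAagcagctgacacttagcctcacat
S100a9: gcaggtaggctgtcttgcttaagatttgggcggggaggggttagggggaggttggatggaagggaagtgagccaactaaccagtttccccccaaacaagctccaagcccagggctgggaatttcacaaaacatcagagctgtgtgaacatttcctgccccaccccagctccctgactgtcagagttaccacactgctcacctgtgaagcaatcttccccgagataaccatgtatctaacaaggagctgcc
Ly6g: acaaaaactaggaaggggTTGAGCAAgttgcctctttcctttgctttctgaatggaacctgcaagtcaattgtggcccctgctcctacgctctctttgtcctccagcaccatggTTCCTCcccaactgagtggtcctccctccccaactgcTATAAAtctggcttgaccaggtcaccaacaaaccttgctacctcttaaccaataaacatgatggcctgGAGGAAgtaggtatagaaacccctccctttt
In the S100a8 window GAGGAA lay on the opposite strand with its first base 170 and 36 bases before the start, the second directly beside a TATAAA at 30 bases. The S100a9 window held none of the 3 letter strings on either strand. In the Ly6g window TTGNNCAA lay 232 bases, GAGGAA 136 and 31 bases, and TATAAA 99 bases before the start. Among the other members, TTGNNCAA was found in the windows of Mmp8 (19 bases before the start) and Retnlg (89 bases), and GAGGAA in those of Mmp8 and Stfa2l1. Of 32851 windows of the same length, 5.65% held TTGNNCAA, 23.3% GAGGAA and 12.4% TATAAA. The matches are given as descriptions of the letters, and whether any of them is a working site was not tested. The windows of all 7 members were found in the RefSeq table.

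The 2 calprotectin genes, nearly silent in Normal colon, were present in every Model and ATO library. S100a9 (chromosome 3, 90599939 to 90603028; positions as deposited by the authors, whose table writes no build; the submitters' processing notes list mm39 for mouse) had 38.0, 7.43 and 4.44 CPM in ATO 1 to 3, 30.5, 14.6 and 4.30 CPM in Model 1 to 3, and 0.0568, 0 and 0.103 CPM in Normal 1 to 3. All 6 ATO and Model libraries lay above the 3 Normal libraries, and the ATO and Model libraries overlapped. S100a9 was 330-fold higher in Model than in Normal (95% counting interval 113 to 1600, on about 1021 against 3 read pairs; log2 fold change 8.25 ± 1.33 (SE), edgeR quasi-likelihood adjusted p = 0.0124). S100a8 (chromosome 3, 90576285 to 90577342) had 10.5, 1.58 and 0.907 CPM in ATO 1 to 3, 5.99, 3.07 and 1.51 CPM in Model 1 to 3, and 0.114, 0 and 0.0899 CPM in Normal 1 to 3. Its groups lay in the same way, with both ATO and Model apart from Normal and overlapping each other. S100a8 was 52.3-fold higher in Model than in Normal (counting interval 20.1 to 194, on about 216 against 4 read pairs; log2 fold change 5.69 ± 1.26, adjusted p = 0.0357).

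The ratio between the subunits could be measured in all ATO and Model libraries. S100a9 exceeded S100a8 by 3.63, 4.67 and 4.79 times in ATO 1 to 3 and by 5.08, 4.73 and 2.82 times in Model 1 to 3 (estimated counts, not per length, with 0.5 read pair added to each). Model 3 had the lowest ratio and Model 1 the highest, with the ATO libraries between. The mean log2 ratio was 2.11 ± 0.22 in ATO and 2.03 ± 0.46 in Model libraries (SD, n = 3 each), a difference of 0.09 that did not pass an exact two-sided permutation test (p = 0.90, smallest possible 0.10). In Normal libraries, with at most 2 read pairs of either gene in a library, no ratio could be read. Per kilobase of the longest coding transcript in GENCODE M21, the mean level of S100a9 was 32.1 CPM in ATO, 31.7 in Model and 0.103 in Normal, and that of S100a8 was 8.89, 7.24 and 0.140 CPM per kilobase in the same groups.

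**Figure D1:**
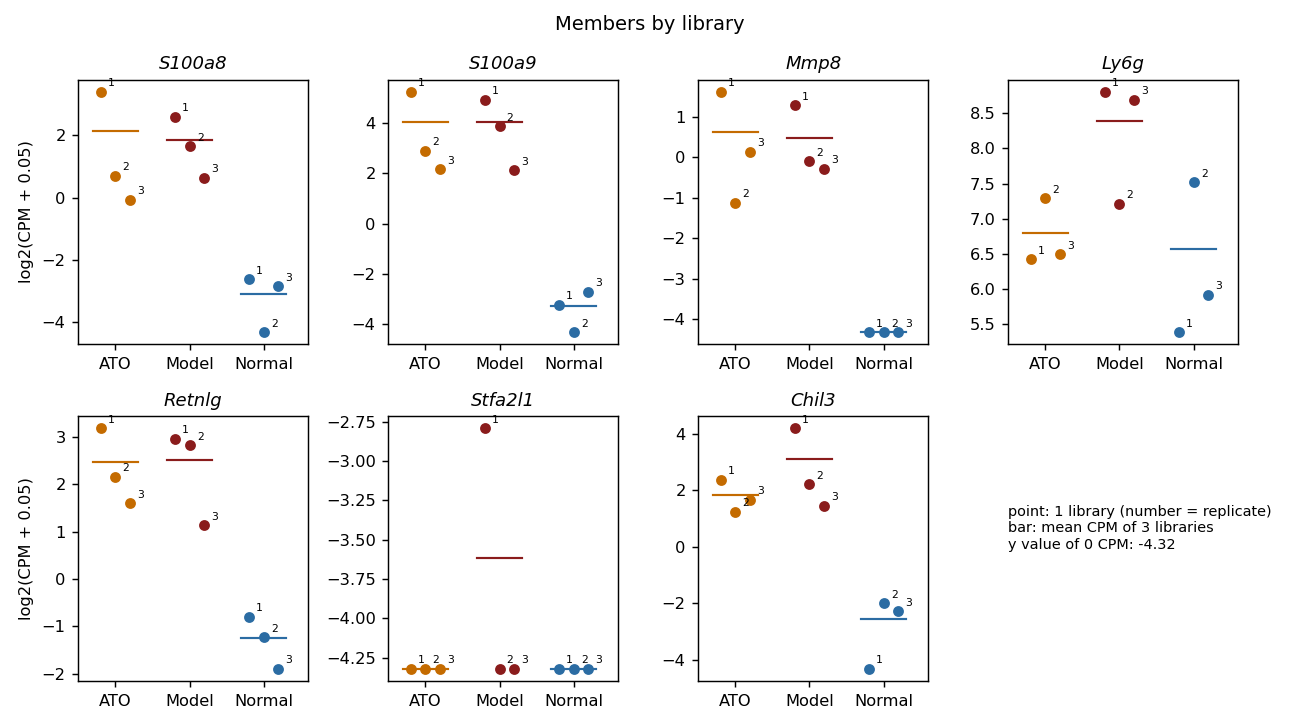
Level of each member gene in each library, as log2(CPM + 0.05) on the vertical axis with its own range per panel, for ATO, Model and Normal (points, 1 library each, numbered by replicate; bars, the mean CPM of 3 libraries). S100a8, S100a9, Mmp8, Retnlg and Chil3 lie higher in every ATO and Model library than in every Normal library; Ly6g libraries of all groups overlap, and Stfa2l1 is above 0 in Model 1 alone.

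Mmp8, the collagenase, was the one member gene with no counts in any Normal library and counts in every other. Mmp8 (chromosome 9, 7558457 to 7568486) had 3.03, 0.408 and 1.05 CPM in ATO 1 to 3, 2.38, 0.888 and 0.774 CPM in Model 1 to 3, and 0 CPM in all 3 Normal libraries. It was at least 26.2-fold higher in Model than in Normal (adjusted p = 0.0171) and at least 28.7-fold higher in ATO than in Normal (adjusted p = 0.0290), where both bounds take 3 read pairs over the 3 Normal libraries as the most that 0 counts allow. Of 14 tested matrix metalloproteinase genes, Mmp8 among them, 7 rose and none fell in Model against Normal. Without Normal 3 only 1 passed. Their median log2 fold change was 1.97, beside -0.001 over all 16160 tested genes. Mmp2, a gelatinase of stromal cells, averaged 74.0 ± 24.9 CPM in Model and 19.2 ± 2.01 CPM in Normal libraries (log2 fold change 1.94 ± 0.26, adjusted p = 0.00609). Mmp3, stromelysin, averaged 26 ± 14.2 CPM in Model libraries and 1.16 ± 0.341 CPM in Normal libraries (log2 fold change 4.49 ± 0.79, adjusted p = 0.0158). Mmp25, a membrane-anchored protease of neutrophils, was higher by 1.99 ± 0.36 on the log2 scale (adjusted p = 0.0171).

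Retnlg was the only one of these low genes with a measurable level in every Normal library. Retnlg (chromosome 16, 48692984 to 48694859) had 9.02, 4.42 and 2.98 CPM in ATO 1 to 3, 7.74, 7.06 and 2.15 CPM in Model 1 to 3, and 0.525, 0.376 and 0.218 CPM in Normal 1 to 3. Model 3 was the lowest library outside Normal, and no Normal library reached any ATO or Model library. It was 16-fold higher in Model than in Normal (counting interval 10.3 to 26.1; log2 fold change 3.92 ± 0.63, adjusted p = 0.0124). Of the 4 resistin family genes tested, Retnlg alone passed in Model against Normal. Retnlb, a goblet cell protein that acts on gut bacteria, had 54.0, 429 and 102 CPM in Model 1 to 3 and 1940, 107 and 796 CPM in Normal 1 to 3 (adjusted p = 0.231). Retnla averaged 1.96 ± 1.27 CPM in Model libraries and 5.63 ± 3.87 CPM in Normal libraries (adjusted p = 0.365), and Retn, resistin itself, 1.97 ± 1.23 CPM in Model libraries and 2.01 ± 2.5 CPM in Normal libraries (adjusted p = 0.995).

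Chil3 was highest in a single Model library. Chil3 (chromosome 3, 106054870 to 106074880) had 5.13, 2.30 and 3.13 CPM in ATO 1 to 3, 18.1, 4.60 and 2.69 CPM in Model 1 to 3, and 0, 0.200 and 0.154 CPM in Normal 1 to 3. Model 1 stood far above the other libraries, while Model 2 and Model 3 lay within the range of ATO. Chil3 was 72.5-fold higher in Model than in Normal (counting interval 35.0 to 181, on about 524 against 7 read pairs; log2 fold change 6.12 ± 1.06, adjusted p = 0.01505). Its transcripts share 28.5% of their stretches of 50 bases and 5.24% of those of 100 bases with other genes, Chil4 among them. Its counts are therefore uncertain, although Chil4 itself had 0 counts in all 9 libraries. Chil1, a chitinase-like protein that human inflamed colon also makes, was the other gene of its family that rose, with 7.30 ± 1.73 CPM in Model libraries and 0.359 ± 0.189 CPM in Normal libraries (log2 fold change 4.35 ± 0.50, adjusted p = 0.00431). Of 7 tested genes of alternatively activated macrophages, a macrophage state of which Chil3 is often taken as a mark, 0 passed edgeR's test in Model against Normal, and Mrc1 and Clec10a had an unadjusted p under 0.05.

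Stfa2l1 was close to undetected. Stfa2l1 (chromosome 16, 35977181 to 35982323) had 8 estimated counts, about 2 read pairs, in Model 1 and 0 in the other 8 libraries, and was left out of the tests by the filter on low counts. A count of 0 allows up to 0.132 to 0.143 CPM in an ATO library and 0.150 to 0.170 CPM in a Normal library, for counting error alone. Stfa1, Stfa2, Stfa3, Csta3, Cstdc5 and Cstdc6 of the same family had 0 counts in every library, and Cstdc4 at most 0.0609 CPM. Stfa2l1 shares 24.6% of its stretches of 50 bases with other genes, Stfa2 among them, and none of its stretches of 100 bases. Of the relatives that were measured, Cstb, the widely expressed stefin B, rose slightly, with 54.4 ± 4.17 CPM in Model libraries and 39.1 ± 1.79 CPM in Normal libraries (log2 fold change 0.48 ± 0.10, adjusted p = 0.0353). Csta2 was lower, with 0.128 ± 0.0598 CPM in Model libraries and 1.05 ± 0.187 CPM in Normal libraries (log2 fold change -3.04 ± 0.56, adjusted p = 0.0188). Neither passed without Normal 3.

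Ly6g stood apart in level and in pattern. Ly6g (chromosome 15, 75027089 to 75030975) had 86.0, 157 and 90.2 CPM in ATO 1 to 3, 447, 148 and 413 CPM in Model 1 to 3, and 41.8, 183 and 60.5 CPM in Normal 1 to 3. Normal 2 lay above Model 2 and above all 3 ATO libraries, and ATO 2 lay above Model 2, so that every pair of groups overlapped. Ly6g averaged 336 ± 163 CPM in Model libraries and 95.2 ± 76.9 CPM in Normal libraries (SD, n = 3 each), without passing the threshold (log2 fold change 1.82 ± 0.59, adjusted p = 0.115); without Normal 2 it passed, at 2.72 ± 0.52 (adjusted p = 0.0354). Per kilobase of its longest coding transcript it averaged 118 CPM in ATO, 357 in Model and 101 in Normal, against 0.103 CPM per kilobase of S100a9 in Normal. In Normal colon, then, where S100a8, S100a9, Mmp8 and Chil3 lay between 0 and 0.200 CPM, Ly6g had 41.8 to 183 CPM. Of its stretches of 50 bases 0.448% occur in other genes, Ly6i among them, and none of its stretches of 100 bases do.

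Genes related to Ly6g ranged from near the floor, as Ly6f with a mean of 0.0501 CPM in Normal, to 13890 CPM for Lypd8 in Normal; both were named after their values were seen. Of 15 tested Ly6 family genes, Ly6g among them, 3 rose and 1 fell in Model against Normal, with a median log2 fold change of 0.65; without Normal 3, 1 rose and 1 fell. Ly6a, also called Sca-1, averaged 1095 ± 222 CPM in Model libraries and 428 ± 94.5 CPM in Normal libraries (log2 fold change 1.36 ± 0.23, adjusted p = 0.0149). Ly6c1, a gene of endothelial cells, had 293, 139 and 248 CPM in Model 1 to 3 and 16.3, 52.5 and 12.2 CPM in Normal 1 to 3 (log2 fold change 3.07 ± 0.56, adjusted p = 0.0185). Like Ly6g, it was lowest in Model 2 among the Model libraries and highest in Normal 2 among the Normal libraries. Ly6i rose to 5.96 ± 0.522 CPM in Model, against 0.626 ± 0.196 CPM in Normal libraries (log2 fold change 3.25 ± 0.45, adjusted p = 0.00759). Ly6m fell to 332 ± 79.7 CPM in Model, against 894 ± 193 CPM in Normal libraries (log2 fold change -1.43 ± 0.23, adjusted p = 0.0117). Ly6c2, a monocyte gene, averaged 20.9 ± 6.58 CPM in Model libraries and 13.3 ± 6.07 CPM in Normal libraries (adjusted p = 0.327). These genes lie in 1 family of similar sequence. Stretches shared with other genes were counted for Ly6g, as given above, but not for its relatives, whose counts may be uncertain.

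**Figure D2:**
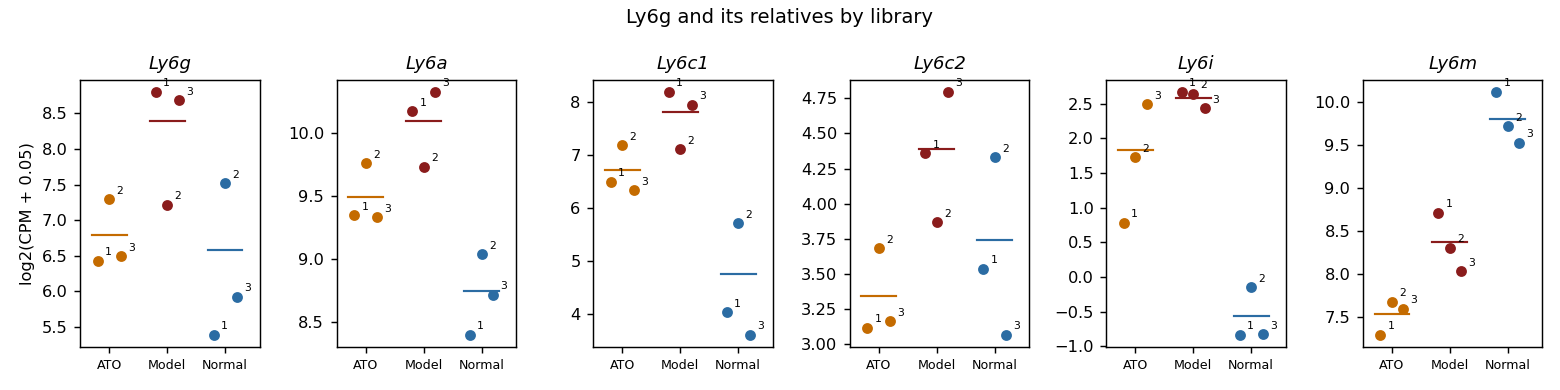
Level of Ly6g and 5 related genes in each library, as log2(CPM + 0.05) on the vertical axis with its own range per panel, for ATO, Model and Normal (points, 1 library each, numbered by replicate; bars, the mean CPM of 3 libraries). Ly6g and Ly6c1 are lowest in Model 2 among Model libraries and highest in Normal 2 among Normal libraries, while Ly6m is highest in Normal.

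Counted together, 5 of the 7 members rose in Model against Normal and none fell, where 5.46% of all 16160 tested genes were called, 4.37% higher and 1.10% lower; 6 of the 7 members were tested. S100a8, S100a9, Mmp8 and Chil3 passed the low-count filter through their levels in Model and ATO, since they were at or near 0 in Normal. The count therefore does not stand as support, and the genes were chosen with earlier results of these data known. List genes at or near 0 in Normal carry the same limit. Each list count in Model against Normal is to be read beside the 4.37% called higher and 1.10% lower. The same 5 members had no overlap between Model and Normal, as had 14.0% of all tested genes in the higher direction. Leaving out Normal 3 ended all 5 calls (adjusted p = 0.0598 for S100a9 to 0.140 for S100a8), with 5 members still under an unadjusted p of 0.05, and leaving out Normal 1 ended those of S100a8 and S100a9 (adjusted p = 0.0908 and 0.0531). The call of S100a8 was also lost without Normal 2, without Model 1 or without Model 2, and with limma-voom 0 members passed (adjusted p = 0.0844 to 0.360 for these 5), with 4 members, Ly6g among them, under an unadjusted p of 0.05. Leaving out Model 2 and Model 3 together, the libraries with the most pancreatic RNA, left Model 1 as the lone Model library. Model 1 was the highest of its group for these 5 genes. It is assumed to vary like the ATO and Normal libraries in each fit that leaves out both, list counts below among them. Without Model 1 the log2 fold change of Chil3 was 4.91, of S100a9 7.44 and of S100a8 5.07. In bulk tissue, more cells of a type and more RNA per cell cannot be told apart.

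The atorvastatin group was set against the Model group, and for the members no difference passed. Of the 7 members 0 were called in ATO against Model by edgeR's quasi-likelihood test, 0 by DESeq2 and 0 by limma-voom, where 0% of all 16160 genes were called by edgeR (1908 had an unadjusted p under 0.05) and 321 genes by DESeq2. The ATO and Model libraries of every member overlapped, while 7.90% of all tested genes lay wholly higher and 7.70% wholly lower in ATO. Only Ly6g had an unadjusted p under 0.05 among the members (log2 fold change -1.60 ± 0.59, adjusted p = 0.360). It averaged 111 ± 39.8 CPM in ATO and 336 ± 163 CPM in Model libraries, with ATO 2 just above Model 2. The log2 fold change was 0.29 ± 0.96 for S100a8 (adjusted p = 0.946), 0.01 ± 0.88 for S100a9 (adjusted p = 0.998), 0.15 ± 0.80 for Mmp8 (adjusted p = 0.972), -0.05 ± 0.55 for Retnlg (adjusted p = 0.986) and -1.27 ± 0.83 for Chil3 (adjusted p = 0.594). The direction for S100a8, S100a9 and Mmp8 rested on ATO 1, without which they stood at -1.49, -1.46 and -0.88. With standard errors of this size, a difference of 1 on the log2 scale lay within about 2 standard errors for each of these members.

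The low members shared some but not all of their order within groups. S100a8, S100a9, Mmp8, Retnlg and Chil3 were each highest in ATO 1 among ATO libraries, highest in Model 1 among Model libraries and lowest in Model 3. S100a9 spanned 8.57-fold between ATO libraries and 7.11-fold between Model libraries, and S100a8 11.5-fold and 3.98-fold. The lowest ATO library was ATO 3 for S100a8, S100a9 and Retnlg and ATO 2 for Mmp8 and Chil3, and among Normal libraries, with few reads, S100a8 and Retnlg were highest in Normal 1, S100a9 in Normal 3 and Chil3 in Normal 2. Ly6g shared with all the low members only its highest Model library, Model 1. It also shared with Chil3 the highest and lowest Normal libraries, Normal 2 and Normal 1. It was lowest in Model 2 among Model libraries, and among ATO libraries highest in ATO 2 and lowest in ATO 1.

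ATO was also set against the vehicle group, a comparison that shares the Normal libraries with the one of Model against Normal. Of the 7 members 3 passed, all higher in ATO, where 1.67% of all tested genes were called, 1.32% higher and 0.347% lower. Those that passed were S100a9 (324-fold, counting interval 111 to 1570; log2 fold change 8.26 ± 1.33, adjusted p = 0.0217), Retnlg (15.1-fold, counting interval 9.70 to 24.6; log2 fold change 3.87 ± 0.63, adjusted p = 0.0218) and Mmp8, given above. S100a8, S100a9, Mmp8, Retnlg and Chil3 lay wholly above Normal in all 3 ATO libraries, as did 13.5% of all tested genes. S100a8 was 63.2-fold higher (counting interval 24.4 to 234; adjusted p = 0.0545) and Chil3 28.9-fold higher (counting interval 13.8 to 72.7; adjusted p = 0.0517), both without passing; Chil3 passed in 7 alternatives (adjusted p at most 0.0498), among them without Model 3 and with counts divided by 4. Ly6g averaged 111 ± 39.8 CPM in ATO and 95.2 ± 76.9 CPM in Normal libraries (log2 fold change 0.22 ± 0.57, adjusted p = 0.908). Leaving out any 1 of the 3 Normal libraries ended all 3 calls (adjusted p = 0.0651 to 0.110), leaving out ATO 1 left S100a9 alone, with its log2 fold change at 6.78 and that of S100a8 at 4.19, against 5.98 with all libraries, and leaving out ATO 3 ended that of Mmp8 (adjusted p = 0.0716). Mmp8 was also lost with counts divided by 4 (adjusted p = 0.0594), with only the 2 groups in the fit (0.0558) and without Model 2 and Model 3 together (0.0546). By DESeq2 5 members passed, and by limma-voom 0, with 3 under an unadjusted p of 0.05.

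**Figure D3:**
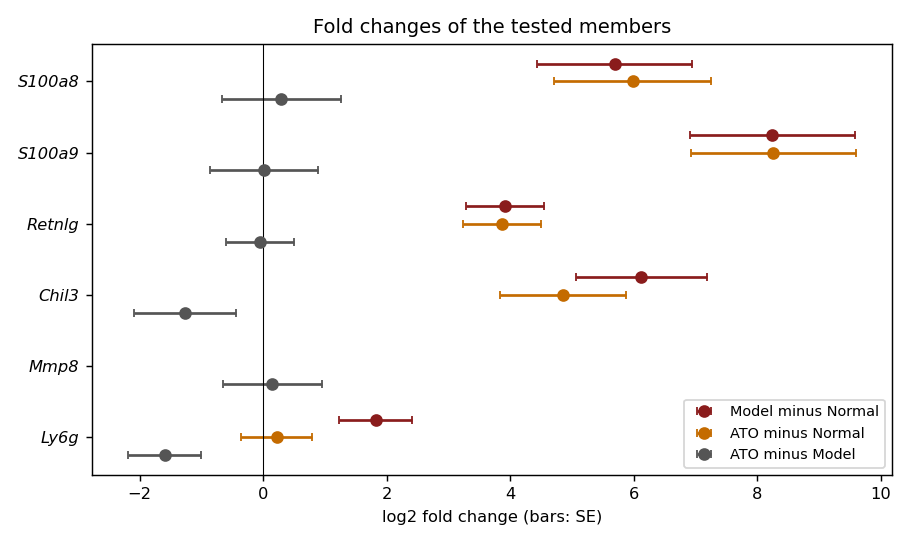
Log2 fold changes from the edgeR fit (points) with their standard errors (bars) on the horizontal axis, for the 6 tested members, as Model minus Normal, ATO minus Normal and ATO minus Model. S100a8, S100a9, Retnlg and Chil3 lie between 3.87 and 8.26 against Normal, the ATO minus Model values of S100a8, S100a9, Retnlg and Mmp8 lie near 0, and Mmp8 against Normal is left out because its Normal counts are 0.

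Azurophil granule genes were at the limit of detection: Ms4a3 had 0 counts in every library, Mpo had counts only in Normal 3, Elane only in Model 1, and the 6 genes together summed to 0.113 to 0.320 CPM in ATO, 0.342 to 0.463 CPM in Model and 0.141 to 0.284 CPM in Normal libraries. Of 9 tested genes of specific and gelatinase granules, 6 rose and 0 fell in Model against Normal, with a median log2 fold change of 3.14. Of all tested genes 4.37% were called higher. Cd177, the most abundant gene of this list, went the other way without passing (log2 fold change -0.59 ± 0.33, edgeR adjusted p = 0.357). The list of 10 genes summed to 288 to 400 CPM in ATO, 329 to 467 CPM in Model and 332 to 473 CPM in Normal libraries, which overlapped. Ltf, lactoferrin, had 2.92, 8.48 and 5.91 CPM in ATO 1 to 3, 52.7, 7.59 and 38.3 CPM in Model 1 to 3, and 0.397, 1.19 and 0.784 CPM in Normal 1 to 3 (Model against Normal, log2 fold change 5.37 ± 0.79, adjusted p = 0.00929). Its order among the Model libraries was that of Ly6g, with Model 2 lowest, and not that of S100a9. Lcn2, which epithelium also makes, averaged 25.3 ± 13.2 CPM in Model libraries and 2.42 ± 0.699 CPM in Normal libraries (log2 fold change 3.38 ± 0.58, adjusted p = 0.0147). Camp and Ngp, which developing neutrophils make in quantity, stayed at or under 0.487 CPM in every library. Camp had 0.283, 0.487 and 0.292 CPM in Model 1 to 3 and 0, 0 and 0.116 CPM in Normal 1 to 3. It did not pass (edgeR unadjusted p = 0.0394, adjusted p = 0.209). Without Normal 3, 0 of the 10 genes then tested passed, and with Model 1 as the lone Model library, 3 of 10.

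Of 18 tested genes of neutrophil identity, 11 rose and 0 fell in Model against Normal, with a median log2 fold change of 3.10. Of all tested genes 4.37% were called higher. In 3 of the 18 the log2 fold change was negative, among them Slfn4, the most abundant gene of this list. With Slfn4 the list summed to 572 to 936 CPM in Model and 1190 to 1877 CPM in Normal libraries. Lrg1, a glycoprotein that liver and endothelium also make, averaged 31.7 ± 11.4 CPM in Model libraries and 1.47 ± 0.977 CPM in Normal libraries (log2 fold change 4.43 ± 0.52, adjusted p = 0.00431). Csf3r, through which the growth factor G-CSF acts on neutrophils, averaged 22.1 ± 4.97 CPM in Model libraries and 3.18 ± 1.5 CPM in Normal libraries (log2 fold change 2.79 ± 0.39, adjusted p = 0.00780). Clec4e, a lectin receptor that macrophages share, had 6.82, 6.05 and 1.75 CPM in Model 1 to 3 and 0.326, 0.150 and 0.0514 CPM in Normal 1 to 3 (log2 fold change 4.79 ± 0.74, adjusted p = 0.0108). It was lowest in Model 3, as the 5 low members were. Without Normal 3, 4 of the 18 passed, and with Model 1 as the lone Model library, 7. In ATO against Normal 7 passed (0 without Normal 3), where 1.32% of all tested genes were called higher. By edgeR 0 passed in ATO against Model.

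**Figure D4:**
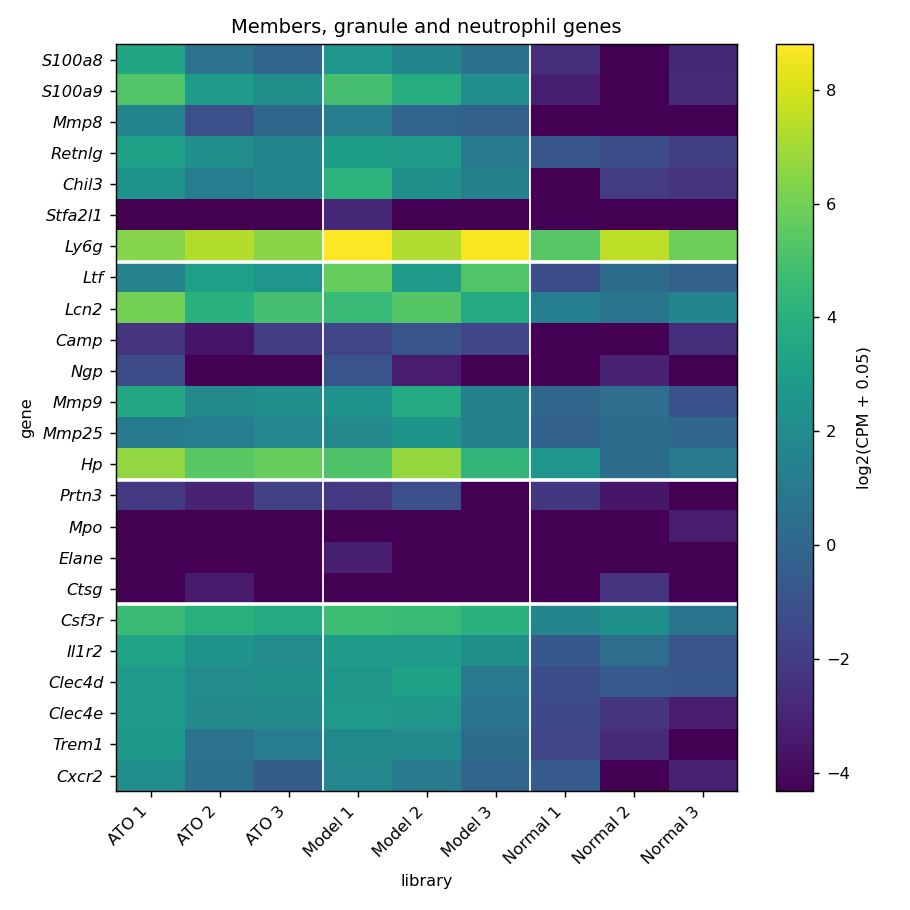
Level of 24 genes (rows) in each library (columns), as log2(CPM + 0.05) in colour; white lines part the members, other specific and gelatinase granule genes, azurophil granule genes, and neutrophil receptors, from top to bottom, and the groups from left to right. Members other than Ly6g and Stfa2l1, and the receptor genes, are darkest in the 3 Normal libraries, while Mpo, Elane and Ctsg are near the floor throughout.

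Of 8 tested genes for attraction and growth of neutrophils, 4 rose in Model against Normal (3 without Normal 3). In ATO against Normal 3 rose (0 without Normal 3). Of all tested genes 4.37% and 1.32% were called higher in these comparisons. The 4 genes were at or near 0 in Normal, at most 0.200 CPM, and passed the low-count filter through Model and ATO. Their count therefore does not stand as support. Cxcl5, a chemokine of epithelium and stroma that draws neutrophils, averaged 3.25 ± 2.32 CPM in ATO, 5.74 ± 2.32 CPM in Model libraries and 0.0908 ± 0.0299 CPM in Normal libraries (Model against Normal, adjusted p = 0.00431). Cxcl2 averaged 8.19 ± 5.81 CPM in ATO, 4.88 ± 2.31 CPM in Model libraries and 0.132 ± 0.0702 CPM in Normal libraries (adjusted p = 0.00745), and was highest in ATO 1, as S100a9 was. Of 6 granulocyte transcription factor genes 2 rose: Cebpd, with 52.0 ± 19.1 CPM in Model libraries and 12.5 ± 1.5 CPM in Normal libraries (adjusted p = 0.00498), and Spi1, which encodes PU.1, with 12.5 ± 4.14 CPM in Model libraries and 3.71 ± 1.06 CPM in Normal libraries (adjusted p = 0.0214). Without Normal 3, 1 of the 6 passed. Cebpe, needed for the making of specific granules in the marrow, stayed at or under 0.645 CPM in every library. Of 6 genes for receptors of calprotectin and their partners 2 rose: Tlr4, with 38.5 ± 1.63 CPM in Model libraries and 24.5 ± 4.22 CPM in Normal libraries (log2 fold change 0.65 ± 0.16, adjusted p = 0.0471), and its partner Cd14 (log2 fold change 1.43 ± 0.30, adjusted p = 0.0308). Neither passed without Normal 3, nor with Model 1 as the lone Model library.

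Among the other 12 tested S100 genes, 1 rose: S100a11, a widely expressed gene, with 171 ± 29.7 CPM in ATO, 153 ± 26 CPM in Model libraries and 71.6 ± 9.63 CPM in Normal libraries (Model against Normal, log2 fold change 1.09 ± 0.17, adjusted p = 0.0117; ATO against Normal, 1.25 ± 0.18, adjusted p = 0.0151). S100a6 and S100a10, abundant in epithelium, averaged 903 ± 127 and 358 ± 25.4 CPM in Model and 711 ± 37.2 and 306 ± 39.2 CPM in Normal without passing (adjusted p = 0.267 and 0.379 in Model against Normal). The median log2 fold change of the 12 genes was 0.47, and without Normal 3, 0 of 13 passed.

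Markers of other cells that make calprotectin or Chil3 were measured as well. Of 12 tested macrophage and monocyte genes 5 rose in Model against Normal, and the list summed to 476 to 622 CPM in ATO, 623 to 641 CPM in Model and 243 to 399 CPM in Normal libraries. Csf1r, the receptor that macrophages need, averaged 109 ± 4.78 CPM in Model libraries and 42.1 ± 7.98 CPM in Normal libraries (adjusted p = 0.00431; log2 fold change 1.38 ± 0.16); C1qb, of complement, and Cd68, of lysosomes, passed too. Without Normal 3, 2 of the 12 passed, as did 2 with Model 1 as the lone Model library. Their part in the members' rise was not tested. The 12 genes of squamous epithelium, another known source of S100a8 and S100a9, summed to 1.97 to 2.26 CPM in ATO, 1.27 to 3.81 CPM in Model and 1.11 to 1.79 CPM in Normal libraries, levels within the range of S100a8 itself in ATO and Model; Sprr1b and Sprr3 were at 0 throughout, and 0 of 5 tested genes passed edgeR's test, 0 of them at an unadjusted p under 0.05, and their part in the members' rise was not tested. Eosinophil genes summed to 2.29 to 6.4 CPM over all libraries, and 0 of 4 tested genes passed edgeR's test, with Prg2 and Ccr3 under an unadjusted p of 0.05.

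Of 13885 genes outside the set with a mean of at least 1 CPM, those whose log2 CPM over the 9 libraries lay closest to the mean of the 6 tested members were Hgf, Cxcl5, Serpina3n, Adamts4, Fndc3b, Lrrc32, Pla1a, Ednra, Ifitm1 and Hdc, with Pearson's r of 0.978 to 0.988. The 9 points share their groups and library depths, and r is given as a description of likeness. Hgf had 21.3, 8.60 and 11.1 CPM in ATO 1 to 3, 22.8, 16.6 and 8.30 CPM in Model 1 to 3, and 2.0, 2.23 and 2.49 CPM in Normal 1 to 3. It shared with the low members the highest ATO and Model library. Hdc, the enzyme that makes histamine, had 8.43, 4.48 and 3.56 CPM in ATO 1 to 3, 7.83, 6.58 and 3.26 CPM in Model 1 to 3, and 0.809, 0.451 and 1.0 CPM in Normal 1 to 3.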

How the data were processed

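The authors deposited unscaled, whole-number estimated counts per gene, 1 column per library, for 21720 genes of 9 colon libraries. Per the submitters' processing notes, which give no roles or order, the tools include bcl2fastq 2.0, StringTie, HISAT2 and DESeq2, and the builds mm39 and rn6; filters and strand use are not given in the sources used here. From these counts, edgeR 4.0.16 under R 4.3.3 kept 16160 genes (6 of the 7 members) after filterByExpr, scaled the 9 libraries by TMM and fitted 1 quasi-likelihood model over them, with no term but group. The 3 contrasts were two-sided, p-values were adjusted by Benjamini-Hochberg across the 16160 genes, and 0.05 was the threshold. A standard error is the log2 fold change divided by the square root of F. CPM uses TMM-scaled library sizes. Counting intervals are exact, at 95%, on read pairs, and cover counting error only. Chi-square tests of counts found no duplicate library within a group.

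Members, gene lists and tests were chosen with earlier results of these data known. The genes named are all members, up to 3 genes of each list with the smallest p in Model against Normal, markers at 0, relatives of members, and the 10 genes most alike. Camp, Ngp, Cd177, Slfn4, S100a6, S100a10 and Cstdc4 were named after their values were seen. The fit was tested on simulated data. Alternatives were DESeq2 1.42.0, limma-voom (limma 3.58.1), other scalings and filters, and leaving out libraries; for the gene lists, leaving out libraries was chosen after seeing the data. Sequences come from RefSeq's GRCm38.p6 table, and shared stretches from GENCODE M21 transcripts. Figures were drawn with matplotlib 3.10.9.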

Additional observations from a re-analysis of the deposited data

How the results depend on the processing

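For Model against Normal, 883 genes were called over the whole table, against 1966 by DESeq2, 474 with only the 2 groups fitted and 476 without Model 2 and Model 3 together; limma-voom called 0 members. Leaving out 1 library gave 164 to 1164 genes and 0 to 5 members; it fell to 164 genes without Normal 3, to 320 and 499 when Normal 1 or Normal 2 was omitted, and to 364 without Model 1, 573 without Model 2, 563 without ATO 2 and 579 without ATO 3. For ATO against Model, DESeq2 called 321 genes, and leaving out 1 library gave 0 to 1. For ATO against Normal, 270 genes were called, against 1056 by DESeq2, with 5 members, and 141 by limma-voom, with 0 members; leaving out 1 library gave 17 to 382 genes and 0 to 4 members. Members' directions against Normal held in every alternative run, except that Ly6g in ATO against Normal ran from -0.13 to 1.12 as single libraries were left out.

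In ATO against Model the signs of small differences turned. S100a8, S100a9 and Mmp8 stood at -0.31, -0.24 and -0.14 by limma-voom and at -0.47, -0.88 and -0.67 without Model 2 and Model 3. As single libraries were left out, they ran from -1.49 to 0.92, -1.46 to 0.82 and -0.88 to 0.85, and Retnlg from -0.60 to 0.26. The log2 ratio of S100a9 to S100a8 differed by -0.18 to 0.25. The cause of these changes was not tested.

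No pairing by replicate number is stated in the labels. Deviations of same-numbered libraries correlated at -0.28 to 0.23 over 9 pairs, and 2 of 9 libraries correlated best with their own number. With 3 libraries a group, these values cannot exclude a pairing. With the replicate block, 402 genes were called in Model against Normal and 104 in ATO against Normal, Chil3 missed the threshold in Model against Normal (adjusted p = 0.0557), and S100a8, S100a9 and Mmp8 stood at -0.26, -0.23 and -0.088 in ATO against Model. Genes at 0 to 7 read pairs in Normal limit how well any fold is known.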

Other observations

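The genes in this section were chosen after their values were seen. Genes closest in pattern to Ly6g alone were Grhl3, an epithelial transcription factor, Lrba, Stom and Adamts15, with Pearson's r of 0.976 to 0.992 over the 9 libraries. Grhl3 had 0.419, 0.725 and 0.382 CPM in ATO 1 to 3, 3.17, 1.05 and 2.79 CPM in Model 1 to 3, and 0.114, 0.952 and 0.231 CPM in Normal 1 to 3, again highest in Model 1 and Model 3 and in Normal 2. Stom had 151, 223 and 136 CPM in ATO 1 to 3, 475, 199 and 499 CPM in Model 1 to 3, and 64.6, 186 and 77.8 CPM in Normal 1 to 3. With Ly6g left out of the mean, 6 of the 10 genes most like the members were the same.

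Some further genes used as neutrophil marks were abundant in vehicle colon. Cd177, a surface protein of neutrophils, averaged 218 ± 56.3 CPM in ATO, 245 ± 112 CPM in Model libraries and 368 ± 81.2 CPM in Normal libraries (SD, n = 3 each; edgeR adjusted p = 0.357 in Model against Normal). Slfn4 averaged 985 ± 676 CPM in ATO, 684 ± 180 CPM in Model libraries and 1523 ± 340 CPM in Normal libraries (adjusted p = 0.231).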
